A study of Mus musculus with 10 samples.

Results

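The 6 genes Sln, Myl4, Myl7, Nr2f1, Nr2f2 and Pam, whose transcripts are enriched in the muscle of the atria, were followed in pieces of mouse ventricle. They were 6 of the 22911 genes named on the array, and were found by matching the RefSeq accession of each probe to the gene symbol. They carried 8 of its 56605 probes: A_52_P413395 for Sln, A_55_P2107045 and A_51_P413130 for Myl4, A_51_P246345 for Myl7, A_55_P2074281 for Nr2f1, A_55_P2128283 for Nr2f2, and A_55_P2733797 and A_55_P1969156 for Pam. All 8 probes were well above background on all 10 arrays, and none was saturated.

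To learn which transcripts set the right ventricle (RV) apart, hearts of C57BL/6N mice were cut into 3 pieces, the RV, the septum between the ventricles (Septum) and the left ventricle (LV), and total RNA of each piece was hybridised to a one-colour Agilent array. There were 4 RV, 3 LV and 3 Septum arrays. The labels describe no surgery, drug or genetic change for any group and give neither age nor sex. Atrial tissue was not among the labelled pieces, the labels do not say how the ventricles were trimmed from the atria, and they do not say whether pieces with the same number came from the same heart, so the p-values below measure the spread between these arrays.

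Atrial and ventricular muscle cells share most of their contractile machinery but differ in some of its parts. In the adult mouse, Myl4 and Myl7 encode the essential and the regulatory light chain of atrial myosin, whose ventricular counterparts are Myl3 and Myl2. Sln encodes sarcolipin, a small membrane peptide that restrains the SERCA calcium pump, as phospholamban (Pln) does in the ventricle. Nr2f1 and Nr2f2 encode the orphan nuclear receptors COUP-TFI and COUP-TFII, which act in atrial identity, and Nr2f2 is also made in venous and lymphatic endothelium. Pam encodes the enzyme that amidates the ends of peptides and is a main protein of atrial secretory granule membranes.

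Each level below is the log2 signal of a probe minus the log2 of the 75th percentile of its array, so that a step of 1 is a doubling and 0 is the level of that percentile. Levels on this scale were compared between arrays for 1 probe at a time, not between genes. In bulk tissue, fewer cells of a type and less RNA per cell cannot be told apart. Between 53.7% and 64.0% of spots per array were well above background. The scanner files gave 2 scan dates, which were taken to separate 2 slides. Numbers 1 and 2 of every region were on slide 1 and the other 4 arrays (RV 3, RV 4, LV 3 and Septum 3) on slide 2.

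Sln, Myl4 and Myl7 were the members whose levels moved most from array to array, and they did so together with Mybphl, which encodes an atrial relative of myosin-binding protein H. The 250 bases before the listed start of 3 of these genes are shown, in gene orientation, because the genes shared a profile over the arrays. They were taken from RefSeq promoters of build GRCm38.p6 for Myl4 at chr11:104550413-104550662 on the plus strand, Myl7 at chr11:5898783-5899032 on the minus strand and Mybphl at chr3:108364661-108364910 on the plus strand. Capitals mark matches to any of 5 motifs searched on both strands.
Myl4: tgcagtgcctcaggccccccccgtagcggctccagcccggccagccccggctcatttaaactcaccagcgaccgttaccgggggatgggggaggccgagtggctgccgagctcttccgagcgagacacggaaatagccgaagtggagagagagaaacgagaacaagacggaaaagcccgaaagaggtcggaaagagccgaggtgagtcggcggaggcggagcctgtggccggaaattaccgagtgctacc
Myl7: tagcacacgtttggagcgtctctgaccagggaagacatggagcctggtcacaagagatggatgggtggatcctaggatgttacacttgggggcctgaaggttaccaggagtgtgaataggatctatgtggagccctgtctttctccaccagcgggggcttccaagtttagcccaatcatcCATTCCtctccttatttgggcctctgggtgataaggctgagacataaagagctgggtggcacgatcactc
Mybphl: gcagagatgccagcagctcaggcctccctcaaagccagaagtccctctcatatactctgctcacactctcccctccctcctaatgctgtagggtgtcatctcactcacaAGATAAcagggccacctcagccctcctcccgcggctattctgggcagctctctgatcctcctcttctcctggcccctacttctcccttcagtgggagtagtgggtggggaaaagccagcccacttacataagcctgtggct
The motifs were the GATA-factor letters AGATAA, the T-box letters AGGTGT, the nuclear receptor letters AGGTCA, the TEAD letters CATTCC and the MEF2 letters TATTTATA. The window of Myl7 held CATTCC 65 bases before the start, the window of Mybphl held AGATAA 136 bases before the start, and the window of Myl4 held none of these letters. Among 32851 promoter windows of this length, 12.6% held CATTCC, 9.99% AGATAA, 11.8% AGGTGT, 14% AGGTCA and 1.56% TATTTATA. No motif was shared by the 3 windows, and Sln had no entry.

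Sln ranged widely within every region. Its level was 3.50, 0.92, 2.23 and -0.22 on RV arrays 1 to 4. It was 2.87, -0.15 and 2.37 on LV arrays 1 to 3, and 6.21, 4.14 and 0.49 on Septum arrays 1 to 3. Septum 1 was the highest and RV 4 the lowest array, the regions overlapped, and the distance between these extremes was 6.43 log2 units, or 86.2-fold. The mean was 3.61 ± 2.90 (SD, n = 3) for Septum, 1.70 ± 1.62 (SD, n = 3) for LV and 1.61 ± 1.61 (SD, n = 4) for RV.

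Myl4, the atrial essential light chain, shared its highest array with Sln. Its level was 5.18, 3.25, 4.74 and 2.36 on RV arrays 1 to 4, 4.31, 2.23 and 4.34 on LV arrays 1 to 3, and 7.71, 5.63 and 3.70 on Septum arrays 1 to 3. Septum 1 and Septum 2 stood above every RV and LV array, while Septum 3 lay inside the range of both ventricles. The mean was 5.68 ± 2.0 (SD, n = 3) for Septum, 3.63 ± 1.21 (SD, n = 3) for LV and 3.88 ± 1.31 (SD, n = 4) for RV, and the full range over the arrays was 44.5-fold. The second Myl4 probe spanned 0.25 to 5.80, from LV 2 to Septum 1, with a mean Septum level of 3.63 against 1.73 in RV and 1.53 in LV.

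Myl7, the atrial regulatory light chain, followed Myl4. Its level was 4.50, 2.81, 4.04 and 1.84 on RV arrays 1 to 4, 3.48, 1.14 and 3.76 on LV arrays 1 to 3, and 6.90, 4.60 and 2.69 on Septum arrays 1 to 3. Septum 1 was again the highest, LV 2 the lowest, and the regions overlapped over a 54.4-fold range. The mean was 4.73 ± 2.11 (SD, n = 3) for Septum, 2.79 ± 1.44 (SD, n = 3) for LV and 3.30 ± 1.21 (SD, n = 4) for RV.

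**Figure D1:**
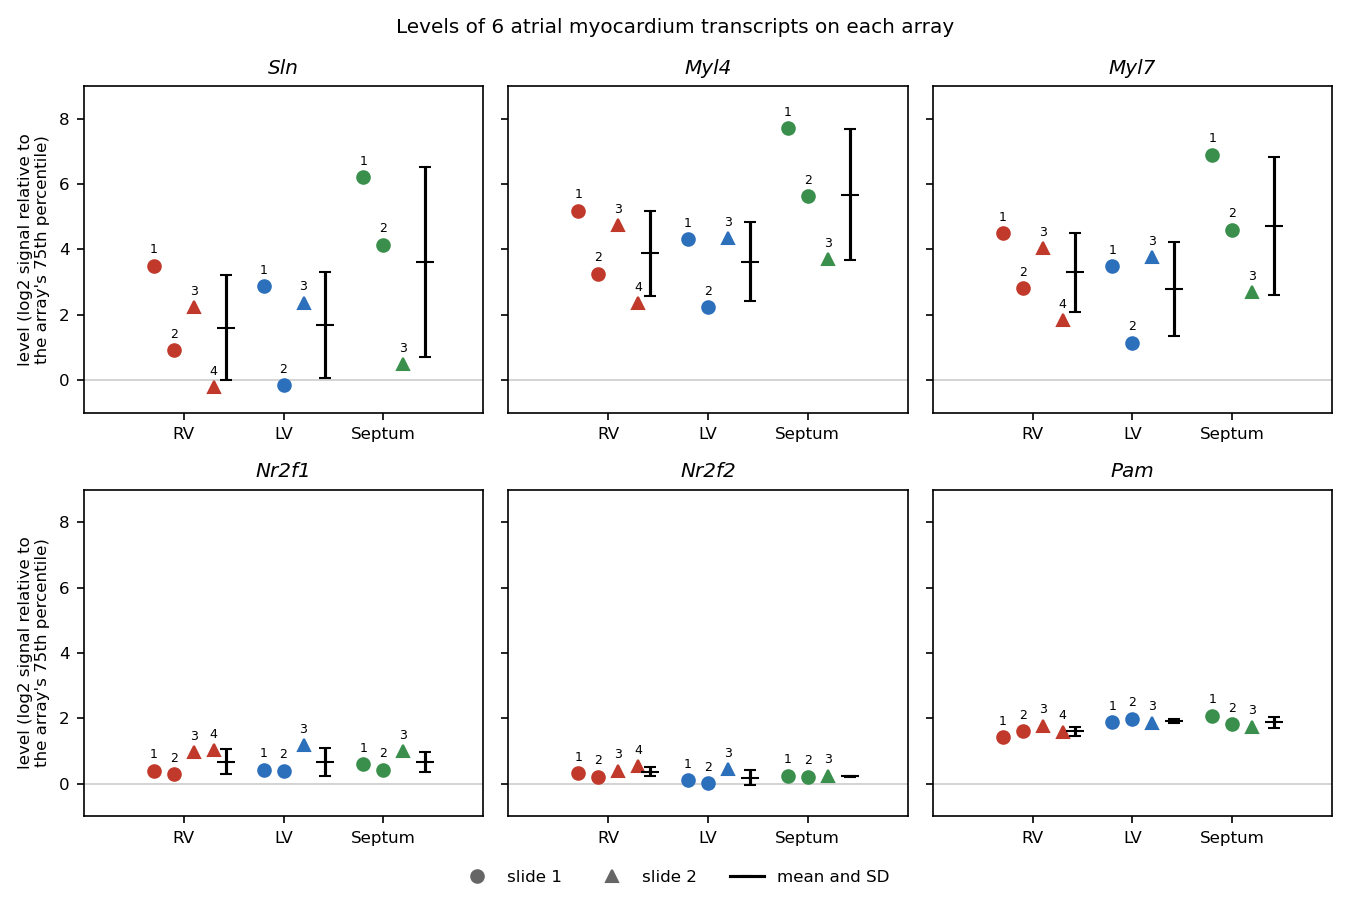
Level of each gene on each array (y axis, log2 signal relative to the 75th percentile of the array, the same range in every panel) by region (x axis). Numbers are replicate numbers, circles are slide 1, triangles are slide 2, and black marks are the mean and SD; Sln, Myl4 and Myl7 spread over 5.48 to 6.43 log2 units, and Nr2f1, Nr2f2 and Pam over 0.53 to 0.88.

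Nr2f1 and Nr2f2 varied far less. The level of Nr2f1 was 0.39, 0.29, 0.97 and 1.02 on RV arrays 1 to 4, 0.43, 0.40 and 1.17 on LV arrays 1 to 3, and 0.59, 0.42 and 1.0 on Septum arrays 1 to 3. The arrays divided by slide and not by region: the 6 arrays of slide 1 lay between 0.29 and 0.59 and the 4 arrays of slide 2 between 0.97 and 1.17, with no overlap. The region means were 0.67 ± 0.302 (SD, n = 3) for Septum, 0.66 ± 0.436 (SD, n = 3) for LV and 0.67 ± 0.383 (SD, n = 4) for RV. Of all 30234 probes tested, 26.1% had non-overlapping slides, and Nr2f1 was the only member among them.

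Nr2f2 was at 0.32, 0.22, 0.39 and 0.54 on RV arrays 1 to 4, at 0.10, 0.01 and 0.44 on LV arrays 1 to 3, and at 0.24, 0.22 and 0.25 on Septum arrays 1 to 3. The lowest 2 arrays were LV 1 and LV 2 and the highest was RV 4, but LV 3 lay above 3 of the 4 RV arrays. The mean was 0.23 ± 0.0143 (SD, n = 3) for Septum, 0.18 ± 0.227 (SD, n = 3) for LV and 0.37 ± 0.132 (SD, n = 4) for RV.

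Pam was the member whose RV and LV arrays did not overlap. Its level was 1.42, 1.60, 1.78 and 1.59 on RV arrays 1 to 4, 1.88, 1.98 and 1.86 on LV arrays 1 to 3, and 2.08, 1.82 and 1.75 on Septum arrays 1 to 3. All 4 RV arrays lay below all 3 LV arrays, as did the RV arrays of 11.1% of the probes tested. The mean was 1.88 ± 0.173 (SD, n = 3) for Septum, 1.91 ± 0.0653 (SD, n = 3) for LV and 1.60 ± 0.145 (SD, n = 4) for RV. The second Pam probe was at 1.04, 1.07, 1.64 and 1.60 in RV and at 1.60, 1.61 and 1.82 in LV, where RV 3 lay above 2 of the LV arrays.

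Region means were then compared with limma over all 30234 probes tested, with Benjamini-Hochberg adjusted p-values. None of the 6 members passed an adjusted p of 0.05 in any of the 3 comparisons, against 3.86% of all probes tested for RV minus LV, 2.08% for RV minus Septum and 0% for Septum minus LV. At an unadjusted p of 0.05, Pam alone passed in RV minus LV, as did 19.8% of all probes, and in RV minus Septum, as did 14.1%, and 0 members passed in Septum minus LV, where 2.85% of probes (862) did. A count of 1 in 6 is close to these shares. By Tukey's correction after an analysis of variance, the test that the study's methods name, without adjustment over probes, 1 member (Pam) passed in RV minus LV and 0 in the other comparisons, against 13.2% of probes for RV minus LV, 9.13% for RV minus Septum and 1.44% for Septum minus LV. Over the 6 members the median difference was 0.09 for RV minus LV, -0.86 for RV minus Septum and 0.98 for Septum minus LV, beside -0.052, -0.038 and -0.019 over all 14645 genes tested.

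Sln did not differ between the ventricles beyond its spread. The RV minus LV difference was -0.092 on the log2 scale, with a 95% interval from -3.14 to 2.95 and a limma adjusted p of 0.980. The sign turned, to 0.52, when the replicate number was fitted as a block (limma adjusted p = 0.786). Only RV had an array numbered 4, so a fit with this block leaves RV 4 out, and omitting RV 4 alone also gave 0.52. The Septum mean was higher, by 1.91 than LV (interval -1.34 to 5.17, limma adjusted p = 1) and by 2.01 than RV (RV minus Septum -2.01, interval -5.05 to 1.04, limma adjusted p = 0.579). In the order Septum, LV, RV, neither pair of neighbours differed beyond the spread between arrays.

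The light chains gave the same picture. Septum minus LV was 2.05 for Myl4 (interval -0.35 to 4.44) and 1.94 for Myl7 (interval -0.55 to 4.43), each with a limma adjusted p of 1. RV minus Septum was -1.80 for Myl4 (interval -4.04 to 0.45, limma adjusted p = 0.473) and -1.43 for Myl7 (interval -3.76 to 0.90, limma adjusted p = 0.610). RV minus LV was 0.25 for Myl4 (interval -1.99 to 2.49) and 0.51 for Myl7 (interval -1.82 to 2.84), with limma adjusted p-values of 0.919 and 0.838. The intervals thus left room for differences of several-fold in either direction between the ventricles.

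The higher Septum means of these genes came from 2 of the 3 Septum arrays. Leaving out Septum 1 lowered the Septum minus LV difference of Sln from 1.91 to 0.62, that of Myl4 from 2.05 to 1.03 and that of Myl7 from 1.94 to 0.85. Leaving out Septum 3 raised them to 3.48, 3.04 and 2.96. Without LV 2 the RV minus LV differences were -1.01, -0.45 and -0.32, and without RV 4 they were 0.52, 0.76 and 0.99, so the sign between the ventricles turned with 1 array.

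The order of the regions also depended on the replicate number. Among the arrays numbered 1, and again among those numbered 2, Septum was highest, RV next and LV lowest for Sln, Myl4, Myl7 and Mybphl. Among the arrays numbered 3, Septum was the lowest for all of them. Within slide 1 the Septum minus LV difference of Sln was 3.81, and within slide 2 it was -1.88, where each region of that pair had a single array. The region-by-slide interaction fitted with limma had an unadjusted p of 0.0552 and an adjusted p of 1 for Sln, and no member passed the adjusted threshold in any of the 3 comparisons.

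**Figure D2:**
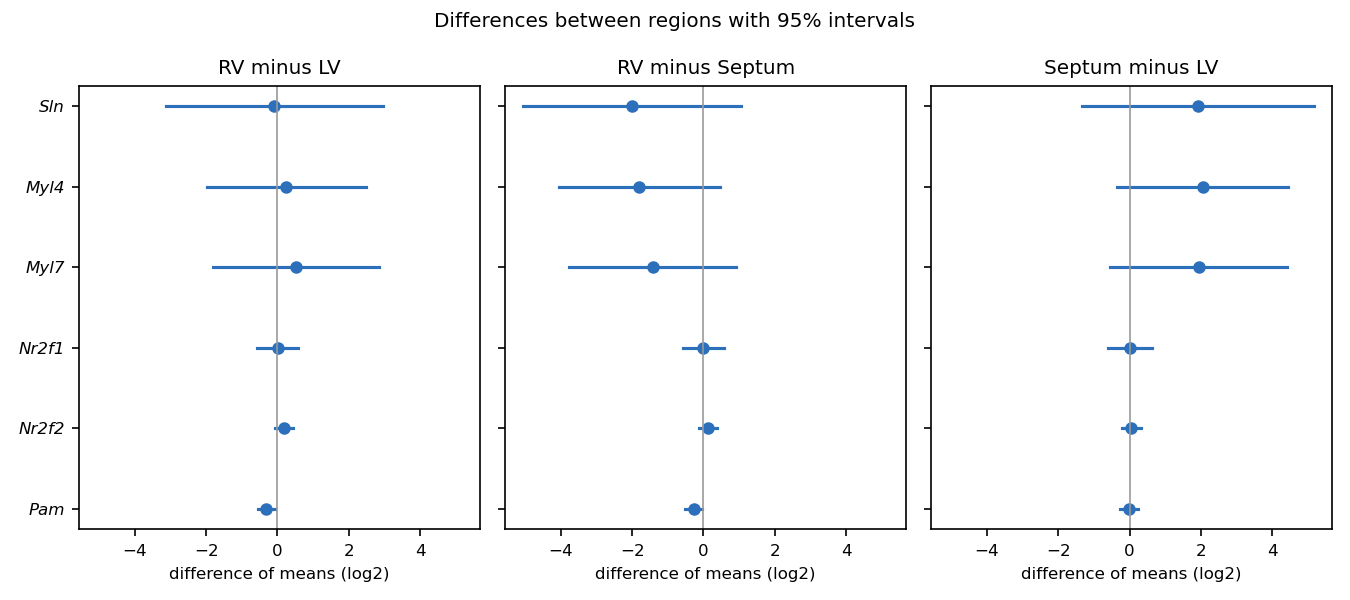
Difference of region means for each gene (x axis, log2 units; points are estimates, lines are 95% intervals from limma) in the 3 comparisons of regions. The intervals of Sln, Myl4 and Myl7 are several log2 units wide and cross 0 in every comparison, and that of Pam lies below 0 in both comparisons with RV.

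Nr2f1 showed no difference between region means that was large next to its spread. RV minus LV was 0.0012 (interval -0.57 to 0.57), RV minus Septum -0.0041 (interval -0.58 to 0.57) and Septum minus LV 0.0053 (interval -0.61 to 0.62). For Nr2f2, RV minus LV was 0.19 (interval -0.07 to 0.44, limma adjusted p = 0.420), RV minus Septum 0.13 (limma adjusted p = 0.682) and Septum minus LV 0.051 (limma adjusted p = 1).

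Pam had the smallest unadjusted p-values of the members in both comparisons with RV, 0.0174 and 0.0258 by limma. RV minus LV was -0.31 (interval -0.55 to -0.07, limma adjusted p = 0.149) and RV minus Septum was -0.28 (interval -0.52 to -0.04, limma adjusted p = 0.271). LV and Septum were close, at -0.025 for Septum minus LV (interval -0.28 to 0.23). Within slide 1 the RV minus LV difference of Pam was -0.42 and within slide 2 it was -0.17. Its second probe gave -0.34 for RV minus LV (limma adjusted p = 0.344).

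Set beside all probes, the spread of the first 3 members within a region was unusual in size. The pooled SD of the arrays within regions was 2.06 log2 units for Sln, 9th of 30175 probes with a value on every array, 1.58 for Myl7, 18th, and 1.52 for Myl4, 26th. The second Myl4 probe was 24th and Mybphl 10th, at 1.85. The median probe had an SD of 0.172, and the 99th percentile was 0.791. Nr2f1 was 3330th at 0.379, Nr2f2 17869th at 0.149 and Pam 19425th at 0.137, on either side of the median.

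**Figure D3:**
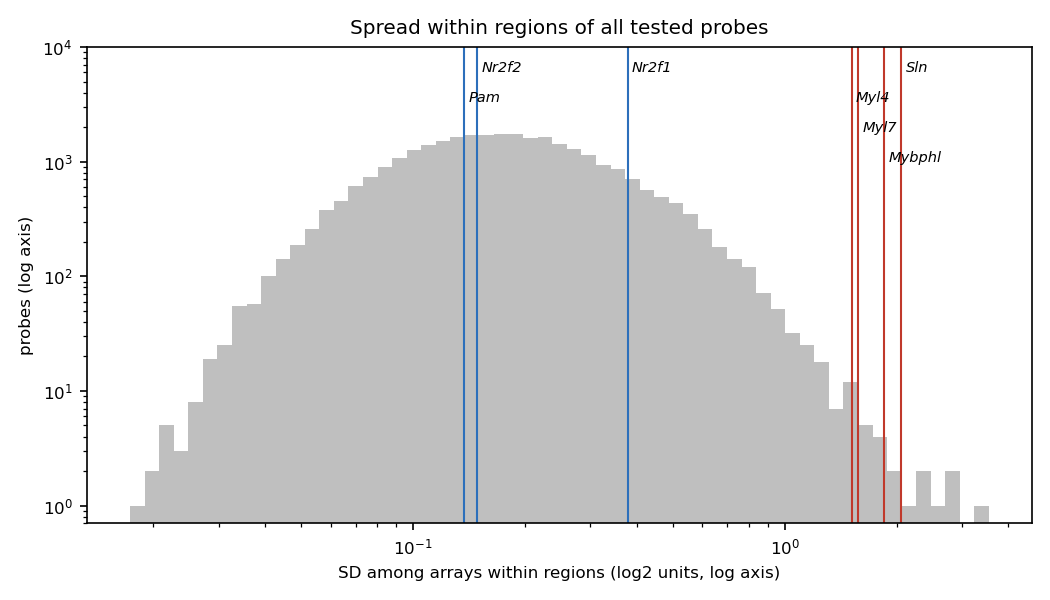
Number of probes (y axis, log scale) by pooled SD of the arrays within regions (x axis, log2 units on a log axis) for the 30175 ranked probes. Vertical lines mark the lead probes of the 6 genes and of Mybphl; Sln, Mybphl, Myl7 and Myl4 lie at ranks 9 to 26, and Nr2f1, Nr2f2 and Pam inside the bulk.

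The 3 variable members were high on the same arrays. Over the 10 arrays, Pearson's r was 0.990 for Myl4 and Myl7 (Spearman's rho 0.988), 0.975 for Sln and Myl4 (rho 0.927) and 0.968 for Sln and Myl7 (rho 0.939). In permutation tests of 100000 resamples, two-sided, the p-values of r were 2e-05, 3e-05 and 3e-05, each 0.00015 after adjustment over the 15 pairs of members, and those of rho were 2e-05, 0.00035 and 0.00019, or 0.0003, 0.00175 and 0.00142 adjusted. The test takes the arrays as independent, which the labels do not settle for pieces with the same number, and the genes were chosen with earlier results of these arrays known.

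These correlations were recomputed on parts of the arrays. Without the 2 arrays farthest from the median of the first gene, r was 0.981 for Myl4 and Myl7, 0.941 for Sln and Myl4 and 0.925 for Sln and Myl7. Among the 6 arrays of slide 1 the values were 0.992, 0.993 and 0.981, and slide 2 held too few arrays for its own value. With each region's mean removed, they were 0.994, 0.981 and 0.975, and with each slide's mean removed 0.990, 0.983 and 0.981.

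The other 12 pairs gave r between -0.471 and 0.716, with no adjusted p below 0.0769. Several changed within the 6 arrays of slide 1, where no test was run. Nr2f1 with Nr2f2, the highest of them, fell to 0.044. Nr2f1 had r of 0.776 with Sln there, against -0.250 over all arrays, 0.781 with Myl4, against -0.127, and 0.724 with Myl7, against -0.099. Nr2f2 had r of 0.599 with Sln, 0.623 with Myl4 and 0.688 with Myl7 within slide 1, against -0.058, 0.008 and 0.101 over all arrays. Pam had r of 0.323 with both Sln and Myl4 and 0.250 with Myl7.

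Among the 14616 named genes with a ranked lead probe, 3 had r of at least 0.9 with Sln: Mybphl at 0.991, Myl4 at 0.975 and Myl7 at 0.968. The next gene stood at 0.889. Mybphl was likewise among the 3 nearest genes of Myl4 and of Myl7, at 0.978 for each, the other 2 places being held by members. These likenesses describe the 10 arrays and carry no test.

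Mybphl was at -1.08, -2.88, -1.79 and -3.90 on RV arrays 1 to 4, at -1.28, -4.10 and -1.79 on LV arrays 1 to 3, and at 2.09, -0.62 and -3.36 on Septum arrays 1 to 3. It was well above background on 8 arrays, the exceptions being LV 2 and Septum 3, which were also low for Sln. Its differences between regions were -0.02 for RV minus LV, -1.78 for RV minus Septum and 1.76 for Septum minus LV, with limma adjusted p-values of 0.996, 0.585 and 1.

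**Figure D4:**
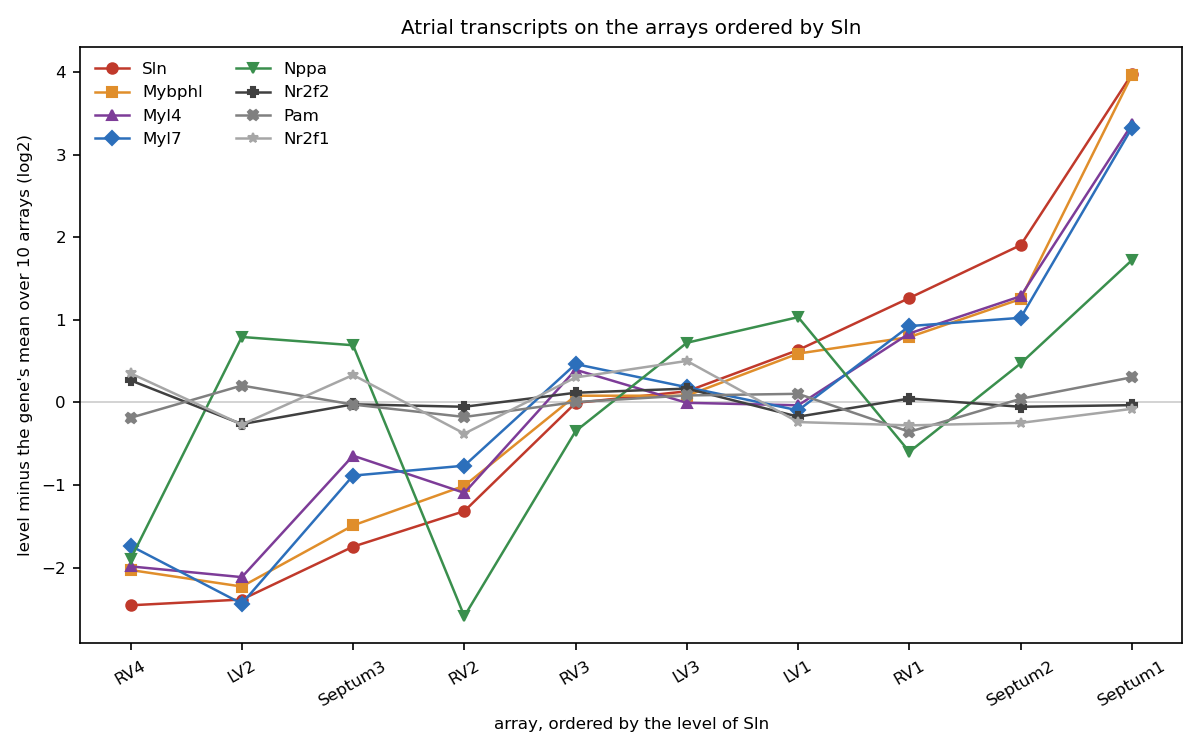
Level of each gene minus its mean over the 10 arrays (y axis, log2 units), with the arrays ordered by their Sln level from RV 4 to Septum 1 (x axis). Mybphl, Myl4 and Myl7 run along with Sln, Nppa (r = 0.506 with Sln) runs with it in part, and Nr2f1, Nr2f2 and Pam stay near 0.

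The share of spots well above background moved in part with Sln. It was 63.2% on Septum 1, 64.0% on RV 1 and 62.3% on LV 1, where Sln was high for its region, and 54.2% on Septum 3, 53.7% on LV 2, 56.2% on RV 2 and 59.4% on RV 4, where Sln was low. Septum 2, with Sln at 4.14, had 59.3%, RV 3, with Sln at 2.23, had 63.4%, and LV 3, with Sln at 2.37, had 53.7%. Its part in the pattern was not tested.

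The nearest genes of the other members were not on the atrial lists. Those of Nr2f1 were Ceacam1 at r = 0.982, Sfswap at 0.982 and Ipo8 at 0.981, and Ceacam1 also divided by slide, from -0.82 to -0.37 on slide 1 and from 0.11 to 0.42 on slide 2. Those of Nr2f2 were Fbxo5 at 0.951, Sp100 at 0.938 and Fam120b at 0.930, and those of Pam were Kctd3 at 0.942, Mbtps2 at 0.936 and G3bp2 at 0.917.

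A list of 13 other genes known for atrial enrichment was read beside the members, of which 10 were tested. In RV minus LV, Dkk3 was higher and Kcnk3 lower at the adjusted threshold, where 4.98% of all genes passed. In RV minus Septum, Kcnk3 was lower, where 2.7% passed. None passed in Septum minus LV. At an unadjusted p of 0.05 the counts were 3, 4 and 3 of 10 for RV minus LV, RV minus Septum and Septum minus LV, beside 19.8%, 14.1% and 2.85% of all probes, and by Tukey's correction 3, 3 and 2, beside 13.2%, 9.13% and 1.44%. The median difference of the list was -0.10, -0.30 and 0.11 in that order of comparisons. Bmp10, a growth factor of the right atrium, and the lead probe of Cacna1d were not above background on any array. The second Cacna1d probe was above it on 2 arrays, and Sbk2 on 4.

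The genes of this list that passed did not share the profile of Sln. Dkk3, which encodes a secreted glycoprotein of the Dickkopf family, was at 2.59, 2.55, 3.86 and 3.22 in RV, -0.26, -0.61 and 0.79 in LV and 3.71, 2.03 and 2.98 in Septum. Its RV arrays all lay above its LV arrays, as for 8.10% of probes, by 3.08 (limma adjusted p = 0.0100), a call lost without LV 1, and its r with Sln was 0.231. Its second probe gave 3.04 (limma adjusted p = 0.0204).

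Kcnk3, the two-pore potassium channel TASK-1, was at 3.43, 3.70, 3.56 and 3.80 in RV, 4.23, 4.40 and 4.40 in LV and 4.03, 4.25 and 4.33 in Septum. It was lower in RV than in LV by 0.72 (RV minus LV -0.72, limma adjusted p = 0.0100), a call lost without LV 2, and lower than in Septum by 0.58 (-0.58, limma adjusted p = 0.0352), a call kept in 1 of 10 fits that left out an array. Its r with Sln was -0.086.

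Nppa, which encodes atrial natriuretic peptide, was at 5.16, 3.17, 5.41 and 3.86 in RV, 6.79, 6.55 and 6.48 in LV and 7.48, 6.23 and 6.45 in Septum. The RV arrays lay below all others, as RV arrays did for 11.1% of probes against LV and 7.82% against Septum. RV minus LV was -2.21 (limma adjusted p = 0.0504, and 0.0347 with a block for the replicate number, which leaves RV 4 out). RV minus Septum was -2.32 (limma adjusted p = 0.0605, and 0.0442 with that block). Its second probe gave -2.28 (limma adjusted p = 0.0558) and -2.42 (limma adjusted p = 0.0663).

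Among the rest of the list, Kcnj5, a subunit of the acetylcholine-gated potassium channel, was lower in every RV array than in every Septum array (-0.27, limma adjusted p = 0.226), as for 7.82% of probes. With the replicate block, which leaves RV 4 out, that limma adjusted p was 0.0499. Its RV arrays also lay below all LV arrays (-0.16, limma adjusted p = 0.404), as for 11.1% of probes. The Septum arrays of Stard10, a lipid transfer protein, lay above its LV arrays by 0.65, and those of Gja5, the gap junction protein connexin 40 of atria and conduction fibres, by 0.57, each with a limma adjusted p of 1, beside 3.55% of probes with Septum above LV on every array. The second Gja5 probe overlapped between Septum and LV, with a difference of 0.31 (limma adjusted p = 1). Stard10 had r of 0.707 with Sln and Kcnj5 0.668.

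The ventricular light chains varied little over the arrays. Myl2 lay between 9.33 and 9.72 and Myl3 between 9.22 and 9.56 on all arrays, a range of 1.31-fold and 1.26-fold, beside 54.4-fold and 44.5-fold for Myl7 and Myl4. Myl3 was lower in all RV than in all LV arrays (-0.16, limma adjusted p = 0.344), as for 11.1% of probes. Of the 5 counterparts tested, 0 passed limma's adjusted threshold in any comparison, and Myh7 alone passed without adjustment and by Tukey's correction, in RV minus Septum. In RV minus Septum, 14.1% of all probes passed without adjustment by limma and 9.13% by Tukey's correction. Myh7, the slow myosin heavy chain, was -1.87 in that comparison (limma adjusted p = 0.0817, and 0.0126 with the replicate block, which leaves RV 4 out). Its levels were 2.55 to 3.74 in RV and 3.99 to 5.62 in Septum, and 7.82% of probes likewise had all RV below all Septum arrays.

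Of the SERCA pumps and their small regulators, 5 of 9 had a probe, and 0 passed in any comparison by limma, adjusted or not, or by Tukey's correction. Pln lay between 6.91 and 7.32 and the cardiac pump Atp2a2 between 7.98 and 8.63. Sln was the only one of the 5 with a range above 2 log2 units. The third receptor of the NR2F family, Nr2f6, lay between 3.85 and 4.37, with RV minus LV at -0.29 (limma adjusted p = 0.190).

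Among 10 genes of secretory granules and peptide processing, Pam included, 6 were tested and 0 passed limma's adjusted threshold, with 3 at an unadjusted p of 0.05 in RV minus LV (19.8% of all probes), 2 in RV minus Septum (14.1%) and 0 in Septum minus LV (2.85%). Tukey's correction gave 2, 1 and 0. Besides Pam and Nppa, RV arrays of the prohormone convertase Pcsk2 lay above all LV arrays, with means apart by 0.29 (limma adjusted p = 0.157). Those of the carboxypeptidase Cpe did so with means apart by 0.14 (limma adjusted p = 0.364). The same held for 8.10% of probes, and RV 1 was at 5.90 for Cpe against 5.89 on LV 1. Septum arrays of Corin, the protease that activates the precursor of atrial natriuretic peptide, lay below LV arrays by 0.15 (-0.15, limma adjusted p = 1), as for 3.45% of probes.

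Markers of other tissues were summed per array to see what else the pieces held. The 10 cardiomyocyte markers summed to between 11.64 and 11.97, lowest on Septum 1, with 0 passing limma's adjusted threshold in any comparison 4, 1 and 0 passing without adjustment, beside 19.8%, 14.1% and 2.85% of all probes, and 2, 1 and 0 by Tukey's correction. Skeletal muscle, where Sln is also made, had 5 of its 10 markers tested and sums from 3.66 to 3.96. Its markers Myh1 and Myod1 were above background on no array. Pvalb, lower in RV than in Septum (-1.83, limma adjusted p = 0.00151), was its single call, where 2.7% of all genes passed. The Septum arrays of Pvalb also lay above all LV arrays (1.70, limma adjusted p = 0.0669), as for 3.55% of probes. The conduction system list summed to between 3.17 and 3.50 in RV, 3.02 and 3.44 in LV and 3.40 and 3.91 in Septum. It was highest on Septum 3, the Septum array with the least Sln. Its marker Isl1 and the lead probe of its marker Cacna1d were above background on no array. Of its 8 tested genes, Etv1 was higher in RV than in LV (0.63, limma adjusted p = 0.0196), where 4.98% of all genes passed. Cntn2 was lower in RV than in Septum (-2.02, limma adjusted p = 0.00956), where 2.7% passed. At an unadjusted p of 0.05 by limma, 2 passed in RV minus LV, 4 in RV minus Septum and 4 in Septum minus LV. By Tukey's correction the counts were 1, 2 and 4, beside 13.2%, 9.13% and 1.44% of all probes.

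The remaining lists were read in the same way. Venous and lymphatic endothelium summed to between 6.24 and 6.57 in RV, 5.53 and 5.93 in LV and 5.75 and 5.97 in Septum, with Vwf the single gene of 7 tested that passed, higher in RV than in either other region. At limma's adjusted threshold, 6 of 8 adipocyte markers passed as higher in RV than in LV and 3 of 8 as higher than in Septum. Mesothelium markers passed as higher in RV than in LV for 0 of 8 and than in Septum for 7 of 8. Of all genes, 4.98% passed in RV minus LV and 2.7% in RV minus Septum. All 8 mesothelium differences of RV minus LV were above 0, and 7 had an unadjusted p below 0.05 by limma, beside 19.8% of all probes. By Tukey's correction 1 of the 8 passed in RV minus LV, beside 13.2% of probes, and 8 in RV minus Septum, beside 9.13%. Fibroblast markers passed limma's adjusted threshold as higher in RV than in LV for 3 of 8 and than in Septum for 1 of 8. All 8 of their differences were above 0 in both comparisons, and 7 and 4 had an unadjusted p below 0.05 by limma. By Tukey's correction the counts were 3 and 2. No marker of endothelium (8 tested) or smooth muscle (5 tested) passed limma's adjusted threshold, with 2 and 4 at an unadjusted p of 0.05 in RV minus LV (19.8% of all probes), 2 and 4 in RV minus Septum (14.1%) and 0 in Septum minus LV (2.85%), and by Tukey's correction 2 and 2, 1 and 0, and 0. The part of these tissues in the levels of Nr2f2 and Pam was not tested.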

How the data were processed

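Total RNA of 4 RV, 3 LV and 3 Septum pieces was labelled with Cy3 and hybridised to one-colour Agilent mouse arrays. The authors extracted the signals with Agilent Feature Extraction 11.5.1.1, per the labels, and deposited its background-subtracted intensity per spot. They also deposited a log2 table of the same arrays scaled to the 75th percentile. Its column medians were between -3.13 and -2.89, and it matched the values below within 0.05 for at least 99.9% of probes. The scanner file of RV 1 had been saved with rounded signals.

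The log2 of each processed intensity minus the 75th percentile of its array was used, without control spots and without the 56 to 128 spots an array that the scanner software marked as outliers, and spots of a probe were averaged. A probe was tested if all arrays of 1 region or more had it well above background (30234 of 56605). The gene of a probe came from its RefSeq accession (58.3% of probes named). The lead probe of a gene was the one with the highest mean level. Region means were compared with limma 3.58.1 in R 4.3.3, all arrays in 1 fit, with Benjamini-Hochberg adjustment at 0.05, and checked on simulated data. Correlations used SciPy 1.17.1. The number of arrays limits the precision.

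The members and lists were chosen with earlier results of these data known. A gene of the list of other atrial genes is not reported here. Genes beyond the members were named if called, if their arrays did not overlap between 2 regions or if their range was above 2 log2 units. Members' 3 nearest genes were also named. Deviations from region means correlated between 0.360 and 0.645 for all 9 pairs of arrays with the same number. They correlated between 0.0903 and 0.577 for the 8 other pairs within a slide and between -0.564 and -0.207 for the 16 pairs across slides. All 9 pairs with the same number also shared a slide. On slide 2, RV 4 correlated more with LV 3 (0.571) and Septum 3 (0.577) than RV 3 did (0.426 and 0.444). These values do not settle whether the numbers pair arrays, so the replicate block was kept as an alternative. That block takes RV 4 out of the comparisons, because only RV had an array numbered 4. Alternatives were other scalings (quantile, median, percentile of detected probes), normexp with an offset of 50 on median signals (the files hold no mean signal), the deposited table, other filters, blocks for number or slide, each slide alone, the methods' analysis of variance, the mean of all probes of a gene and leaving out each array. Removing region or slide means and the region-by-slide interaction were added after seeing the data.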

Additional observations from a re-analysis of the deposited data

How the results depend on the processing

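No member passed limma's adjusted threshold under any alternative, the replicate block included. By the methods' analysis of variance with Tukey's correction, before adjustment over probes, 1 member, Pam, passed for RV minus LV, at 0.0498. Of 432 differences recomputed, 45 had the opposite sign to the main value, over 13 of the 18 differences, and the cause was not tested. For RV minus LV, Sln was 0.52 with the replicate block, 0.17 with slide as a block and 0.85 within slide 1. Nr2f1 was -0.021 with median scaling, -0.12 with the replicate block, -0.11 with slide as a block, -0.077 within slide 1 and -0.17 within slide 2. Within slide 2, Myl4 was -0.79 and Myl7 -0.82. For RV minus Septum within slide 2, Sln was 0.51 and Myl7 0.25, and Nr2f1 was 0.0057 with quantile normalization, 0.039 with median scaling and 0.029 with the percentile of detected probes. For Septum minus LV within slide 2, Sln was -1.88, Myl4 -0.64, Myl7 -1.07, Nr2f1 -0.16 and Nr2f2 -0.19. With median scaling Nr2f1 was -0.060 and Nr2f2 -0.014, and within slide 1 Pam was 0.015.

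Leaving out each array in turn, RV minus LV ranged from -1.01 to 0.52 for Sln, -0.45 to 0.76 for Myl4, -0.32 to 0.99 for Myl7 and -0.13 to 0.25 for Nr2f1, RV minus Septum from -0.13 to 0.16 for Nr2f1, and Septum minus LV from -0.16 to 0.26 for Nr2f1, -0.037 to 0.18 for Nr2f2 and -0.12 to 0.040 for Pam. The correlations of Sln, Myl4 and Myl7 stayed between 0.940 and 0.993 there, and 3 or 4 of the 15 pairs passed in every alternative.

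The number of probes called moved far more. For RV minus LV it was 1167, and 684 with median scaling, 269 without a filter, 4512 with the replicate block, 5331 with slide as a block, 331 within slide 2, 3998 by the unadjusted analysis of variance and 390 to 980 without 1 array (lowest without LV 2). For RV minus Septum it was 628, and 112 without a filter, 2154, 2643, 171 and 2754 in the same order, and 118 to 542 without 1 array (lowest without Septum 2). For Septum minus LV it was 0, and 2 with quantile normalization, 3 with normexp, 14 with slide as a block, 1 within slide 2, 435 by the unadjusted and 168 by the adjusted analysis of variance and 0 to 3 without 1 array. With 3 or 4 arrays a region, within-region SDs of 1.52 to 2.06 leave the intervals of Sln, Myl4 and Myl7 several log2 units wide.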
